A study of Rattus norvegicus with 6 samples.

Results

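The genes described here are 40 markers of dividing cells, chosen by name: 11 that serve DNA synthesis in S phase and 29 that serve mitosis. 33 of the 40 were named by a probe through a RefSeq accession, and 32 had a probe well above background on at least 3 of the 6 arrays, 10 of S phase and 22 of mitosis. They are 32 of 11913 named genes and of 32859 features tested. Mcm5, Mki67, Top2a, Bub1b, Ect2, Anln and Melk had no probe named here, and the probe of Aurkb was well above background on 2 arrays. 30 of the 32 measured genes were well above background on all 6 arrays.

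Total RNA of renal cortex came from 6 male Sprague-Dawley (Crl:CD(SD)) rats that were bought at 5 weeks of age. For 4 weeks, 3 animals (vehicle) were dosed with corn oil, and o-anthranilic acid was given to the other 3 (treated) at 1000 mg/kg/day. o-Anthranilic acid is ortho-aminobenzoic acid, an aromatic acid that is also a product of tryptophan breakdown. Each animal had 1 single-colour (Cy3) Agilent array, and the replicates of a group are biological ones, per the series design.

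A cell that enters division first makes deoxynucleotides and copies its DNA, then condenses, attaches and separates its chromosomes. Transcription of the genes for the first step is driven largely by E2F factors late in G1. That of the genes for the second is driven by the MuvB complex with B-Myb and FoxM1 from late S phase on. In MuvB-controlled promoters the protein complex is guided by a short element named CHR (cell cycle genes homology region), often near a CCAAT box, which binds NF-Y. Few epithelial cells of the adult kidney divide at any time, and tubule cells re-enter the cycle after injury.

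The promoters of the 2 classes carried different elements. RefSeq promoter windows of 300 bases (250 before and 50 after the annotated start, assembly GRCr8) were found for 32 of the 40 members. The 8 members with no window here were Rrm2, Mcm4, Ccna2, Aurkb, Tpx2, Ube2c, Racgap1 and Foxm1. The E2F motif was searched as TTTCCCGC, TTTCGCGC, TTTGCCGC and TTTGGCGC, the CHR as TTTGAA and the NF-Y box as CCAAT, each on both strands. The spellings of the E2F motif can overlap each other on opposite strands, and an E2F match can overlap a CCAAT match. An E2F match was present in 6 of 9 S phase windows and in 1 of 23 mitosis windows, against 2.37% of the windows of 27457 genes. A CHR match was present in 16 of 23 mitosis windows and in 1 of 9 S phase windows, against 19.4% of all genes. A CCAAT match was present in 6 of 9 and 16 of 23, against 39.6%. The 40 other S phase genes and 46 other mitosis genes listed for comparison are given beside them, with an E2F match in 12 of 31 and 2 of 42 windows, and a CHR match in 5 of 31 and 27 of 42. These matches describe the letters of the windows and are not evidence of binding in these animals.

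**Figure D1:**
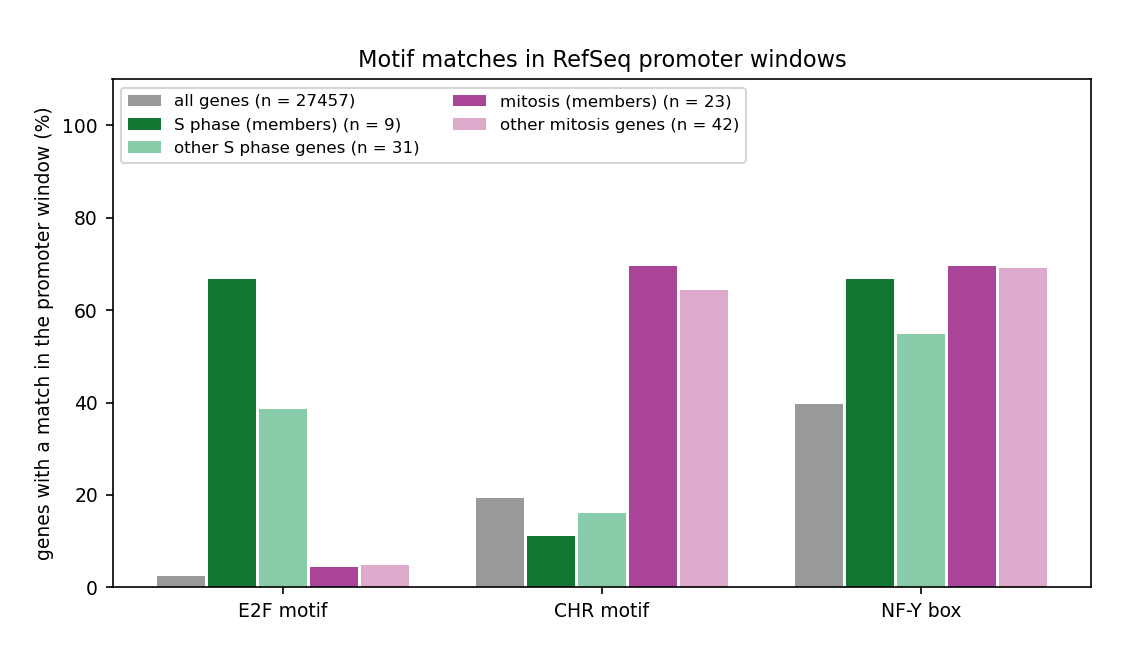
Share of genes (vertical axis, percent) whose RefSeq promoter window holds a match to the E2F motif, the CHR motif or the NF-Y box, for all 27457 genes (grey), S phase genes (green) and mitosis genes (purple), with listed members dark and the other genes of the same kind pale. The E2F bars are tallest for S phase genes (6 of 9 members) and the CHR bars for mitosis genes (16 of 23 members).

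Below are the 150 bases before the start of 7 members, 5' to 3' in the direction of the gene, from RefSeq (GRCr8), with matches to the E2F, CHR and CCAAT motifs in capitals. Mcm6 and Mcm7 are shown because their values separated the groups, Tyms because it has an E2F match and a lower treated mean, and Cdk1, Ccnb2, Cdc20 and Kif23 as mitosis genes with CHR matches.
Mcm6 (chr13:42404353-42404502, minus strand): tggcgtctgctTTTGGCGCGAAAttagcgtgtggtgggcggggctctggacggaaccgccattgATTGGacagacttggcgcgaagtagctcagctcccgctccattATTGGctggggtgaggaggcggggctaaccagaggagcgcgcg
Mcm7 (chr12:22163179-22163328, minus strand): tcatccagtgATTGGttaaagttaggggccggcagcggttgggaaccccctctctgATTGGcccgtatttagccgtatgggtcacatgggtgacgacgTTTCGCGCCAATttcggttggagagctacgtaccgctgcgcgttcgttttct
Tyms (chr9:120776084-120776233, minus strand): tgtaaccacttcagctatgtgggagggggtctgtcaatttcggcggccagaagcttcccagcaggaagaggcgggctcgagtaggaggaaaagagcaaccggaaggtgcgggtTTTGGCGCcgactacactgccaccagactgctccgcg
Cdk1 (chr20:19265143-19265292, plus strand): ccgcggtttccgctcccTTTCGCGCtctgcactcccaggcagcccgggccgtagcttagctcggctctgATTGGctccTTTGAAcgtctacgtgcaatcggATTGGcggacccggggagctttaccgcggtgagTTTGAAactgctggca
Ccnb2 (chr8:79981659-79981808, minus strand): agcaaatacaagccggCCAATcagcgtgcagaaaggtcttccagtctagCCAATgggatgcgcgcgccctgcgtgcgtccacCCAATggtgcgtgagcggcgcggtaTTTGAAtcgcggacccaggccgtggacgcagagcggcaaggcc
Cdc20 (chr5:137255800-137255949, minus strand): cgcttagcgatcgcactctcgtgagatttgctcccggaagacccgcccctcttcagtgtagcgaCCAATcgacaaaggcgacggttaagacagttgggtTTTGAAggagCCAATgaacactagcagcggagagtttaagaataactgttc
Kif23 (chr8:71320585-71320734, minus strand): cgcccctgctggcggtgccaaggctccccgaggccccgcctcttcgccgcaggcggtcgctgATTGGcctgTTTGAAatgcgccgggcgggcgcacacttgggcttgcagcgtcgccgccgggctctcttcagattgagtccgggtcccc
In Mcm6 the E2F spellings of the 2 strands overlap in 1 run that starts at -139 from the start. In Mcm7 an E2F match starts at -52 and runs into a CCAAT box, and another starts at -233, outside the printed bases. Tyms has an E2F match at -37 and no CCAAT box. Cdk1 is the mitosis gene that also has an E2F match, at -133, besides CHR matches at -72 and -16. In Ccnb2, Cdc20 and Kif23 a CHR match starts at -43, -51 and -79, each with a CCAAT box nearby. Ccnb2 has another CHR match at -214, outside the printed bases. Tk1, the S phase gene with the largest difference on the arrays, had no match to any of these motifs in its window.

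Values below are log2 processed signals relative to the array's 75th percentile of all probes, so a value of 0 is the signal that 75% of probes do not exceed. Each gene is represented by its brightest probe, and levels are compared between arrays for 1 probe, never between probes. Setting the treated against the vehicle arrays shows whether mRNA of the members differed with the compound. In a bulk sample, a difference in the number of dividing cells and one in mRNA per cell cannot be told apart. No member passed: limma with Benjamini-Hochberg adjustment over 32859 features called 0 of 32 at an adjusted p under 0.05. The background was 0% called (0 of 32859). An unadjusted limma p below 0.05 was reached by 2 of 32 members, against 2699 features or 8.21% of all in either direction. Both, Tk1 and Mcm6, were higher in treated animals, where the background was 3.46% for higher and 4.75% for lower values. For 5 members every treated array was above every vehicle array, against 6.48% of all features. 4 of these 5 were S phase genes, out of 10 measured, and 1 was a mitosis gene, out of 22. No member was lower without overlap, against 8.13% of all features. Over both classes, the 5 members without overlap are 15.6% of 32, near the background of 14.6% in either direction.

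The 10 S phase genes had 0.13 as their median log2 fold change, 8 above 0 and 2 below, where the median over all features was -0.01 and 48.5% of features were above 0. The 22 mitosis genes had 0.03, 12 above 0 and 10 below. The smallest adjusted p from limma was 0.472 among S phase genes and 0.659 among mitosis genes. The standard error of a log2 fold change had a median of 0.09 for S phase genes and 0.14 for mitosis genes, against 0.11 over all features.

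**Figure D2:**
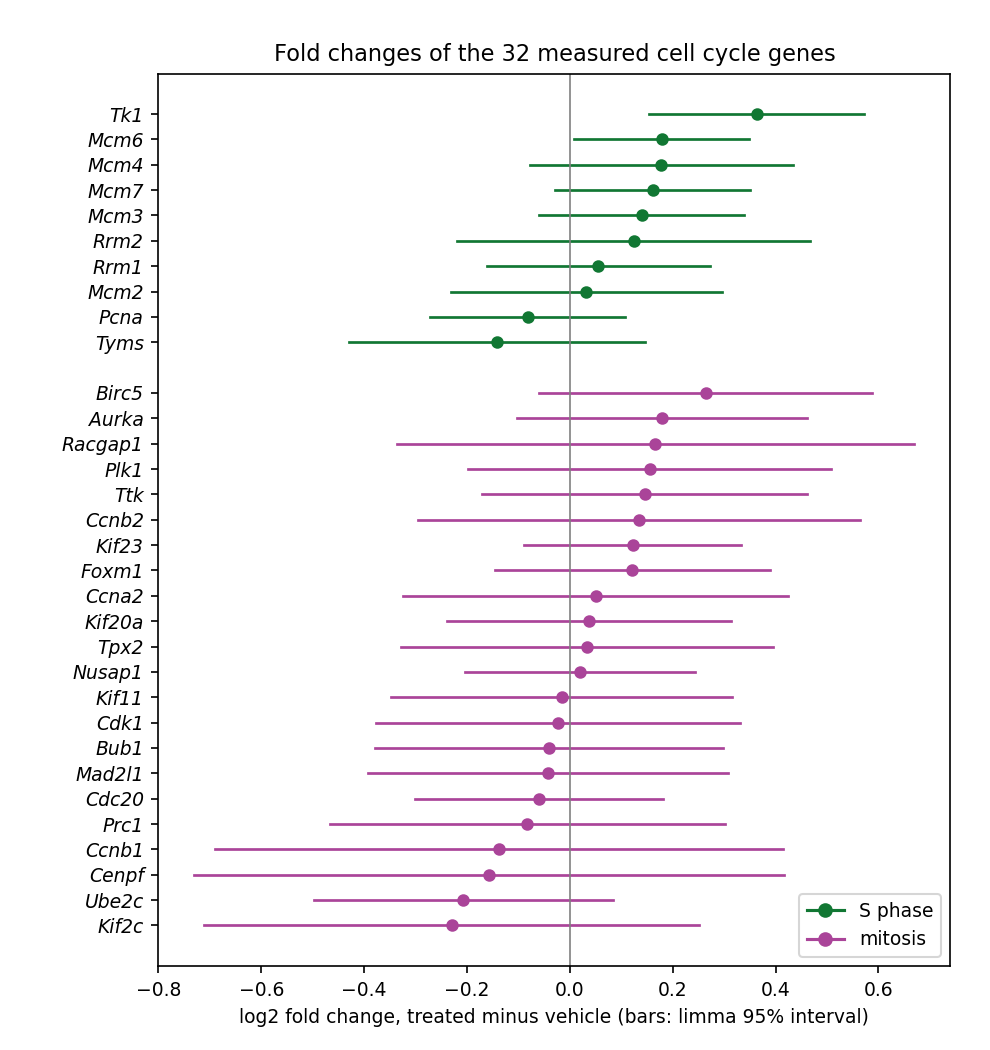
Log2 fold change of treated over vehicle animals (horizontal axis) for the 10 measured S phase genes (green) and 22 measured mitosis genes (purple), with the 95% interval from limma (n = 3 per group). The intervals of Tk1 and Mcm6 lie above 0 before adjustment for the number of features, and all others include 0.

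Precursor supply was represented by Rrm1, Rrm2, Tyms and Tk1. Tk1 (NM_052800), cytosolic thymidine kinase, which salvages thymidine for DNA synthesis, stood at 0.09, 0.18 and 0.08 in vehicle and at 0.46, 0.60 and 0.38 in treated animals. Every treated value was above every vehicle value. The difference was 0.36 ± 0.09 (SE, n = 3 per group), a 1.29-fold higher mean, with a limma p of 0.00520 and an adjusted p of 0.472. The other probe of Tk1, also well above background on all 6 arrays, stood at -1.51, -1.38 and -1.53 in vehicle and at -1.45, -1.44 and -1.45 in treated animals, a difference of 0.02. The groups overlapped on that probe, so the 2 probes of this gene did not give the same result, and their mean gave 0.19. Rrm2 (NM_001025740), the regulated subunit of ribonucleotide reductase, stood at 0.79, 1.19 and 0.77 in vehicle and at 0.93, 1.19 and 1.01 in treated animals. Vehicle replicate 2 was as high as the highest treated array, and the difference of 0.12 stood at 0.26 without that array. It stood between 0.05 and 0.06 without vehicle replicate 1, vehicle replicate 3 or treated replicate 2. The other kept probes of Rrm2 gave smaller differences, of 0.02, 0.01 and 0.04. Rrm1, the large subunit of that enzyme, had a log2 fold change of 0.06 ± 0.09 (SE). Tyms (NM_019179), thymidylate synthase, went the other way at -0.70, -0.33 and -0.59 in vehicle and -0.60, -0.78 and -0.66 in treated animals. Its difference of -0.14 ± 0.12 (SE) stood at -0.04 without vehicle replicate 2, the highest array.

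The MCM helicase, which opens DNA at replication origins, had 5 of its 6 subunits measured, all with a log2 fold change above 0, from 0.03 to 0.18, except that Mcm2 stood at -0.009 after normexp background correction. None passed. Mcm6 (NM_017287) stood at -3.90, -3.90 and -3.93 in vehicle and at -3.68, -3.73 and -3.79 in treated animals. The vehicle arrays lay within 0.04 of each other, and all treated arrays were above them. The difference was 0.18 ± 0.07 (SE), or 1.13-fold (adjusted p = 0.594, limma). The unadjusted limma p was 0.0425. It was 0.0406 with array weights, 0.0479 with quantile normalization, 0.126 with normexp background correction and 0.194 in a robust fit with a variance trend. With the replicate number or the slide as a block it was 0.095, and 0.0791 with no filter. Leaving out any 1 array took this p above 0.05, to between 0.0535 and 0.133. Mcm7 (NM_001004203) stood at 1.38, 1.41 and 1.46 in vehicle and at 1.49, 1.66 and 1.59 in treated animals. Mcm3 (NM_001191805) stood at -0.63, -0.50 and -0.55 in vehicle and at -0.32, -0.47 and -0.46 in treated animals. Neither gene overlapped between the groups, with differences of 0.16 ± 0.08 and 0.14 ± 0.08 (SE), and adjusted p from limma of 0.653 and 0.694. In both, the lowest treated array was nearer to the highest vehicle array than to the highest treated array.

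Mcm4 (NM_033651) stood at -0.68, -0.41 and -0.58 in vehicle and at -0.32, -0.31 and -0.51 in treated animals, and vehicle replicate 2 lay within the treated range. Mcm2 (NM_001107873) stood at -1.30, -1.02 and -1.23 in vehicle and at -1.01, -1.20 and -1.23 in treated animals. Its difference was 0.03 ± 0.11 (SE), with vehicle replicate 2 at -1.02 close to treated replicate 1 at -1.01. The other kept probes bore on these values. Those of Mcm3 gave differences of 0.19 and 0.27, those of Mcm4 0.13 and 0.62 and that of Mcm7 0.05, all above 0. As the mean of kept probes, Mcm4 stood at 0.31 (unadjusted limma p of 0.00857) in place of 0.18, and Mcm7 at 0.11 in place of 0.16. Mcm4 stood at 0.12 without vehicle replicate 1 and Mcm3 at 0.09 without treated replicate 1. The other probes of Mcm2 gave -0.10 and 0.13. Of the 8 S phase genes with more than 1 kept probe, Mcm2 and Rrm1 had probes of both signs. Pcna (NM_022381), the sliding clamp of DNA polymerase, stood at 1.72, 1.79 and 1.86 in vehicle and at 1.75, 1.64 and 1.74 in treated animals. The difference of -0.08 ± 0.08 (SE) had a 95% interval from -0.27 to 0.11, and stood at -0.05 without vehicle replicate 3 or treated replicate 2.

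**Figure D3:**
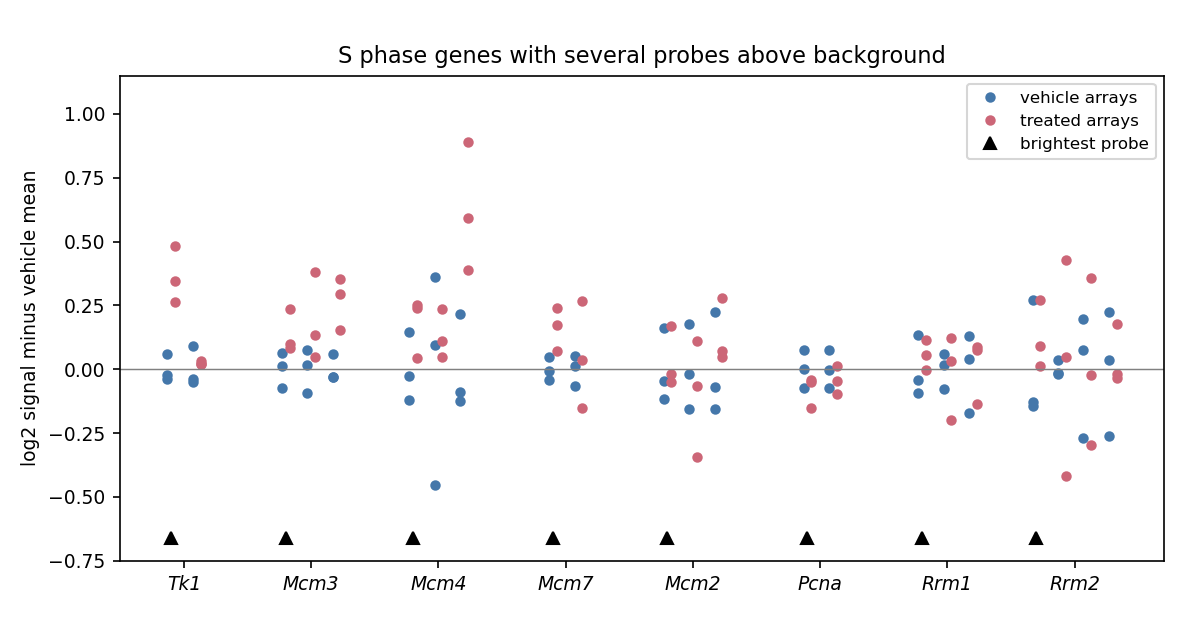
Log2 signal minus the probe's vehicle mean (vertical axis) for every probe well above background on 3 or more arrays of 8 S phase genes, with 1 column of points per probe, vehicle arrays in blue and treated arrays in red. The triangle marks the brightest probe, which represents the gene. For Tk1 the treated points lie above the vehicle points on that probe (difference 0.36) and not on the other (0.02).

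Among the regulators of mitotic entry, Cdk1 (NM_019296), the kinase that starts mitosis, stood at 0.35, 0.59 and 0.27 in vehicle and at 0.50, 0.52 and 0.12 in treated animals. The groups overlapped, with a difference of -0.02 ± 0.15 (SE) and a 95% interval from -0.38 to 0.33. Its partner cyclin B1 (Ccnb1, NM_171991) stood at -3.02, -2.58 and -2.81 in vehicle and at -2.84, -2.59 and -3.40 in treated animals. Treated replicate 3 was the lowest array for both genes, and without it their differences were 0.11 and 0.09, of the opposite sign. Foxm1 (NM_031633), a transcription factor of the mitotic programme, stood at -1.68, -1.72 and -1.87 in vehicle and at -1.45, -1.76 and -1.69 in treated animals. Its difference of 0.12 ± 0.11 (SE) stood at 0.03 without treated replicate 1, the highest array. Ccnb2 and Ccna2, the cyclins B2 and A2, had log2 fold changes of 0.13 and 0.05.

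The mitotic kinases Aurka, Plk1 and Ttk had log2 fold changes of 0.18, 0.16 and 0.15, and none passed. Aurka (NM_153296), aurora A kinase of the spindle poles, stood at -0.91, -0.92 and -1.12 in vehicle and at -0.69, -0.72 and -0.998 in treated animals. Plk1 (NM_017100), polo-like kinase 1, stood at -0.94, -0.71 and -1.07 in vehicle and at -0.64, -0.62 and -0.99 in treated animals. In both, treated replicates 1 and 2 were above all vehicle arrays and treated replicate 3 was among the vehicle arrays. Ttk (NM_001108172), the checkpoint kinase Mps1, stood at -2.88, -2.51 and -2.81 in vehicle and at -2.45, -2.59 and -2.72 in treated animals. Its mean over kept probes gave -0.009 in place of 0.15. With 1 array left out, Aurka ranged from 0.11 (without vehicle replicate 3) to 0.28 (without treated replicate 3) and Plk1 from 0.07 to 0.28 on leaving out the same arrays. Ttk ranged from 0.07 without vehicle replicate 1 to 0.26 without vehicle replicate 2.

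The genes of the spindle checkpoint and of anaphase, Bub1, Mad2l1, Cdc20 and Ube2c, had log2 fold changes from -0.21 to -0.04, all below 0, and none passed. Bub1, Mad2l1 and Cdc20 were within their standard errors of 0, at -0.04 ± 0.14, -0.04 ± 0.14 and -0.06 ± 0.10 (SE), with overlapping groups. Vehicle replicate 2 was the highest array for Bub1 and Mad2l1, and treated replicate 3 the lowest for Cdc20. The other kept probe of Bub1 gave 0.07. Ube2c (NM_001106542), the ubiquitin carrier of the anaphase-promoting complex, stood at -2.49, -2.32 and -2.30 in vehicle and at -2.57, -2.39 and -2.77 in treated animals. The groups overlapped, and the difference of -0.21 ± 0.12 (SE) stood at -0.11 without treated replicate 3 and at -0.30 without treated replicate 2. The spindle genes Kif11, Kif2c, Tpx2 and Nusap1 ranged from -0.23 to 0.03. Kif2c (NM_001085369), a kinesin that takes microtubules apart, was near background: its probe was well above it on 3 vehicle arrays and 1 treated array. It stood at -5.54, -5.22 and -5.06 in vehicle and at -5.63, -5.14 and -5.75 in treated animals, and its difference of -0.23 was -0.10 after normexp background correction. It was -0.41 without treated replicate 2, -0.36 without vehicle replicate 1, -0.12 without vehicle replicate 3 and -0.11 without treated replicate 3. Without treated replicate 2 the members at an unadjusted limma p below 0.05 were 1 higher and 2 lower, the latter Ube2c and Kif2c, and none passed adjustment.

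Birc5 (NM_022274), survivin, a subunit of the chromosomal passenger complex, had the largest log2 fold change of the mitosis genes. It stood at -0.68, -0.88 and -0.95 in vehicle and at -0.49, -0.43 and -0.81 in treated animals. Treated replicate 3 lay among the vehicle arrays, and the difference of 0.26 ± 0.13 (SE, n = 3 per group) gave an adjusted p of 0.659 with limma. Cenpf, a kinetochore protein, was well above background on 3 arrays and had a log2 fold change of -0.16. Of the cytokinesis genes, Kif23 (NM_001108155), the motor of the central spindle, was the 1 mitosis gene whose groups did not overlap. It stood at -2.51, -2.48 and -2.53 in vehicle and at -2.46, -2.45 and -2.25 in treated animals. The nearest arrays of the groups were 0.02 apart, and the difference of 0.12 stood at 0.05 without treated replicate 3. Kif20a, Prc1 and Racgap1, which build the midzone with it, had log2 fold changes of 0.04, -0.08 and 0.17. Of the 10 mitosis genes with more than 1 kept probe, Bub1, Ccna2, Cenpf, Kif11 and Ttk had probes of both signs.

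**Figure D4:**
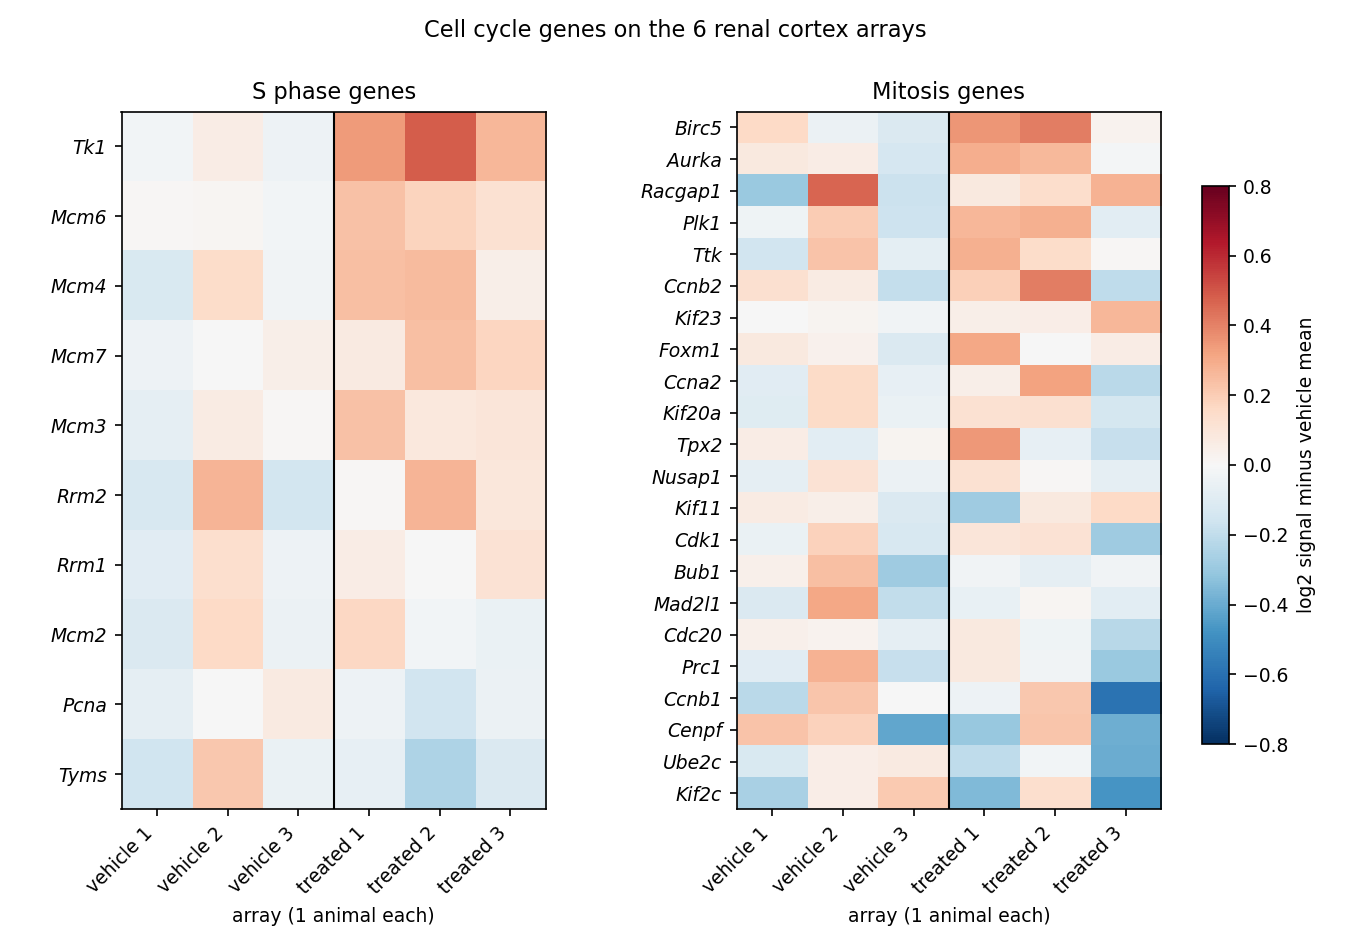
Log2 signal minus the vehicle mean (colour, red higher and blue lower) of each measured S phase gene (left) and mitosis gene (right) on the 6 arrays, ordered by log2 fold change. The S phase panel is mostly red on the treated side at the top, with Tk1 highest, while the mitosis panel differs more between animals than between groups, with treated replicate 3 lowest for 11 of 22 genes.

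The mitosis genes differed between animals within each group. Treated replicate 3 was the lowest array for 11 of 22 mitosis genes and vehicle replicate 3 for 8, against 16.5% and 18.7% of all features. Vehicle replicate 2 was the highest for 7 and treated replicate 1 for 6, against 15.8% and 16.4%. As the median over genes of the log2 signal minus each gene's mean, the mitosis class stood at -0.05, 0.13 and -0.13 in vehicle and at 0.11, 0.09 and -0.16 in treated animals. The group means were -0.02 and 0.01, with standard deviations of 0.13 and 0.15 (n = 3). The difference between groups was thus smaller than the spread among animals of either group. Treated replicate 3 was the lowest array here, and without it the median log2 fold change of the mitosis genes was 0.10.

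The S phase class stood at -0.13, 0.05 and -0.07 in vehicle and at 0.09, 0.05 and 0.03 in treated animals. Vehicle replicates 1 and 3 were below all treated arrays, and vehicle replicate 2 lay within the treated range, so the groups overlapped. Vehicle replicate 1 was the lowest array for 5 of 10 S phase genes and vehicle replicate 3 for 3, against 15.9% and 18.7% of all features. Without vehicle replicate 1 the median log2 fold change of the S phase genes was 0.08. Mitosis minus S phase, the contrast of the 2 classes on each array, was 0.08, 0.08 and -0.07 in vehicle and 0.02, 0.03 and -0.19 in treated animals. The treated mean was lower by 0.08, with standard deviations of 0.09 and 0.12 (n = 3). The groups overlapped, and without treated replicate 3 the difference was -0.001. The 2 classes were therefore not separated by group beyond the spread among animals. Treated replicate 2 was alone on its slide and scan. Blocking on the slide gave a median of 0.10 for S phase and of -0.02 for mitosis genes, as without treated replicate 2. The contrast was -0.12 with the block, where gene means were taken over 6 arrays, and -0.13 without treated replicate 2, where they were taken over 5.

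Genes of the same steps that were not members were counted for comparison. Their lists were chosen by function, with earlier results of these data known, and were read on the same arrays. They are thus no independent test of the members' values. Of 40 other S phase genes 32 were measured, and their median log2 fold change was 0.12, with 24 above 0 and 8 below. None passed over all features. The groups did not overlap for 8 genes higher in treated animals, or 25.0% of 32, against a background of 6.48%, and for 1 gene lower. The list stood at -0.11, 0.03 and -0.11 in vehicle and at 0.09, 0.08 and 0.01 in treated animals, and here too vehicle replicate 2 lay within the treated range. Of 46 other mitosis genes 30 were measured, with a median of 0.06, 19 above 0 and 11 below. Of these, 2 were higher without overlap, or 6.67%, and none was lower. On the arrays that list stood at 0.00, 0.07 and -0.03 in vehicle and at 0.08, 0.13 and -0.13 in treated animals, with treated replicate 3 again the lowest.

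**Figure D5:**
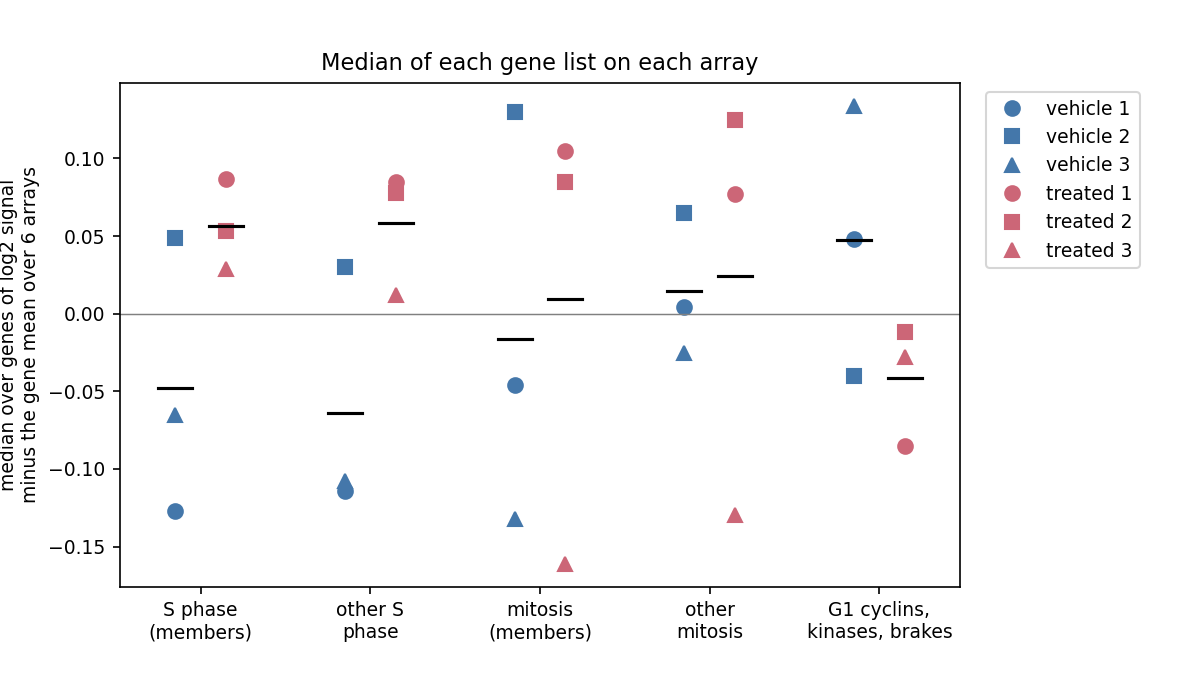
Median over the genes of each list of the log2 signal minus the gene mean over the 6 arrays (vertical axis), with 1 point per array, vehicle in blue, treated in red, symbols for the replicate number and black lines for group means. Vehicle replicate 2 overlaps the treated arrays in both S phase lists, and treated replicate 3 is the lowest point of both mitosis lists.

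Among the other S phase genes, Chaf1b (a subunit of chromatin assembly factor 1, which loads histones on new DNA) stood at -2.05, -1.86 and -2.09 in vehicle and at -1.55, -1.53 and -1.65 in treated animals. The difference was 0.43 ± 0.09 (SE, n = 3 per group), or 1.34-fold (adjusted p = 0.454, limma). Ccne1, cyclin E1, which drives entry into S phase, stood at -3.25, -3.20 and -3.56 in vehicle and at -2.72, -3.00 and -2.63 in treated animals. Its difference was 0.56 ± 0.14 (SE), or 1.47-fold (adjusted p = 0.484, limma), and it was 0.35 after normexp background correction. All treated arrays were above all vehicle arrays for both genes. Gins2, Cdc6 and Rfc4, named after their values were seen, were the other genes of this list with a higher treated mean at an unadjusted p under 0.05. Gins2, a subunit of the helicase, and Cdc6, which loads it, were near background, with well-above-background calls on 3 and 4 arrays. Rfc4, of the clamp loader, had a log2 fold change of 0.27 ± 0.11 (SE). Dbf4, the activator of the kinase Cdc7, was lower in treated animals, at -0.32 ± 0.09, and stood at -0.06 after normexp background correction.

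Of the other mitosis genes, Espl1, separase, which cuts cohesin, had a log2 fold change of 0.52 ± 0.16 (SE). Cdc25b, a phosphatase that activates Cdk1, stood at 0.39 ± 0.13, and Cdca8, of the chromosomal passenger complex, at -0.35 ± 0.17. Cdca8 stood at -0.11 after normexp background correction and at -0.21 without vehicle replicate 1, and Espl1 at 0.35 as the mean of its probes. The first 2 were the genes of this list whose groups did not overlap, and limma gave them adjusted p of 0.524 and 0.543.

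The list of G1 cyclins, kinases and brakes had 21 of 24 genes measured, with a median log2 fold change of -0.07, 7 above 0 and 14 below. Genes that drive the cycle and genes that restrain it are joined here, so this median does not stand for more or less division. The list stood at 0.05, -0.04 and 0.13 in vehicle and at -0.09, -0.01 and -0.03 in treated animals. The groups overlapped through vehicle replicate 2, without which the median of the list was -0.17. None of its genes passed, and 3 of 21 were lower without overlap, against 8.13% of all features. Cdk4, the kinase of cyclin D, stood at 2.11, 2.17 and 2.19 in vehicle and at 1.97, 1.92 and 1.99 in treated animals, a difference of -0.20 ± 0.07 (SE), and limma gave an adjusted p of 0.564. Its treated arrays were all below the vehicle arrays. Myc, a transcription factor of growth, was at -0.44 ± 0.17 and Btg2, an antiproliferative gene, at -0.35 ± 0.16, both with overlapping groups, and Btg2 stood at -0.21 without treated replicate 2. Ccnd1, cyclin D1, stood at 0.18 ± 0.21, and the kinase inhibitors Cdkn1a (p21) and Cdkn1b (p27) at -0.07 ± 0.11 and -0.05 ± 0.14, all with intervals that include 0. As the mean of its 2 kept probes, Cdkn1a stood at -0.31 (unadjusted limma p of 0.0153), so that these 2 probes gave different sizes.

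The labelled tissue was checked on marker genes. All 8 markers of the proximal tubule, the main cell type of the cortex, and all 5 of podocytes were well above background on all 6 arrays. So were 2 of 3 inner medulla markers, with 1 not named. Of these 2, Aqp4 had a log2 fold change of 0.52 ± 0.18 (SE), higher without overlap. Slc14a2 stood at -0.14 ± 0.13 with overlapping groups, and neither passed. The part of medulla in the members' values was not tested. Other cell types that divide or carry cell cycle mRNA were set beside the members. The lymphocyte markers, 8 of 11 measured, stood at -0.04, -0.06 and 0.02 in vehicle and at -0.45, 0.41 and 0.14 in treated animals. Treated replicates 1 and 2, the lowest and the highest array for these markers, stood at 0.11 and 0.09 for the mitosis genes, and the part of lymphocytes in those values was not tested. Macrophage and myeloid markers, 6 of 8 measured, ranged from -0.00 to 0.16 in vehicle and from -0.23 to 0.14 in treated animals. Erythroid markers, 4 of 6 measured, ranged from -0.35 to -0.04 in vehicle and from 0.02 to 0.38 in treated animals, and fibroblast markers, 6 of 6, from -0.24 to -0.02 and from -0.05 to 0.35. All 4 erythroid genes had a log2 fold change above 0, and none passed. Their medians per array did not overlap between the groups, while of single genes Alas2 did not and Hba-a1, Hbb and Slc4a1 did. Of the 6 fibroblast genes, 5 were above 0 and 1 below, and none passed. Col1a1, Pdgfra and Pdgfrb, at 0.47, 0.24 and 0.25, were higher without overlap. They are 50% of this short list, against 6.48% of all features, and the list's medians per array overlapped between the groups. The part of red cell precursors or fibroblasts in the S phase values was not tested. Probes well above background made up between 66.0% and 69.3% on vehicle arrays and between 63.7% and 68.3% on treated arrays, and the part of this difference in the values of dim probes was not tested.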

How the data were processed

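The scanner files of 6 arrays were used, made with Agilent Feature Extraction 10.7 according to the submitters' processing notes. Per the file headers they hold spot intensity on a linear scale, background-subtracted and detrended but not normalised between arrays, and flags of 0 or 1 for each spot. The deposited value table of the authors gives a ratio, by comparison the processed signal over the array's 75th percentile. Its columns matched scanner files of the same group with another replicate number, and replicates are named here by scanner file. Of 62976 spots, 61526 were used after leaving out control spots, 47 outlier-flagged spots and 84 spots of external RNA controls, and no spot was saturated. 27435 probes were named through RefSeq accessions. From each log2 processed signal the 75th percentile of its array was taken away. Probes well above background on at least 3 arrays were kept, with the brightest probe per gene and every unnamed transcript by probe. limma 3.58.1 in R 4.3.3 (lmFit, eBayes, Benjamini-Hochberg) compared the groups over 32859 features at 0.05, was tested on simulated data and has a precision limited by 3 arrays per group. No 2 arrays held identical values, with correlations over features from 0.990 to 0.993.

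The members and lists were chosen with earlier results of these data known. Genes given with values per array were, by rule, the 8 members of each class with the smallest p, 7 fixed members, the 3 genes of each other list with the smallest p and 5 fixed genes, and other members were given by name, fold change and range. Same-numbered animals did not deviate together (correlations of 0.02, -0.05 and -0.02), so the numbers were not used to pair them. Alternatives were normexp background correction on median signals (offset 50), other scalings, the authors' values, other filters, the mean of a gene's probes, other limma settings, blocks and each array left out. Their effect on lists other than the members was added after the data were seen.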

Additional observations from a re-analysis of the deposited data

How the results depend on the processing

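No member passed the threshold under any of the 18 other settings of limma, and the median of the S phase genes was above 0 in all of them, from 0.08 to 0.17. The count of features called over the whole table was 5 with normexp background correction, 5 in a robust fit with a variance trend, 3 with the slide as a block, 2 when the probes of a gene were averaged, 1 with a filter of all 6 arrays, 0 with the other full-array settings, and from 0 to 3 with 1 array left out. It was 3 on leaving out vehicle replicate 2 or treated replicate 2, and 1 on leaving out treated replicate 1. The median of the mitosis genes had the other sign with the slide as a block (-0.017), and ranged from -0.019 to 0.10 with 1 array left out, below 0 when vehicle replicate 1, treated replicate 1 or treated replicate 2 was the one left out. The difference of mitosis minus S phase between the groups ranged from -0.13 to -0.001 with 1 array left out. With the replicate number as a block limma called 0 features, as without it, the medians of both classes were 0.13 and 0.03 and the smallest adjusted p of a member was 0.625. Among the genes picked by rule for values per array, Mcm2 took the other sign after normexp background correction, at -0.009. Ttk did so as the mean of its probes, at -0.009. Of the 32 members, 20 were above 0 at the settings used above. That count was 18 after normexp background correction, 22 for averaged probes and 17 under the slide block. Members outside the rule therefore changed sign as well, and they are not named here. With 1 array left out, Mcm2 ranged from -0.036 to 0.11, Cdk1 from -0.093 to 0.11, Ccnb1 from -0.31 to 0.09, Ccnd1 from -0.023 to 0.34, Cdkn1a from -0.17 to 0.019 and Cdkn1b from -0.18 to 0.075. The cause of these sign changes beyond fewer arrays was not tested. Kif2c, Cenpf and Gins2 were well above background on 4, 3 and 3 of 6 arrays.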

Other observations

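Prim2 and Incenp, a primase subunit and a subunit of the chromosomal passenger complex, fell into separate levels across the arrays without regard to group. They were chosen after their values were seen. Prim2 stood at 1.51, 1.79 and -0.06 in vehicle and at 1.49, 1.45 and 0.01 in treated animals, so that replicate 3 of each group was low. Its other probe showed the same arrays lowest, at -1.98, -1.73 and -2.65 and at -2.09, -2.03 and -3.10. Incenp, with 1 probe named, stood at -1.05, -1.63 and 0.79 in vehicle and at 1.04, -0.96 and -1.40 in treated animals, with vehicle replicate 3 and treated replicate 1 high. The standard errors of their log2 fold changes, 0.61 and 0.85, exceeded those of all 32 members.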
